A study of Mus musculus with 150 samples.

Results

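The genes described are 9 subunits of the SWI/SNF (BAF) chromatin remodelling complexes: Smarca4, Smarca2, Smarcb1, Smarcc1, Smarcc2, Arid1a, Arid1b, Arid2 and Pbrm1. They were chosen by name, as the genomic bins whose gene list holds one of them, among 28704 genes listed on the autosomes. The choice was made with earlier results of these data known. Each gene was listed in 1 bin only, and the 9 genes lay in 9 different bins. The samples were genomic DNA libraries of 150 single cells, 50 from each of the lung tumours T1, T7 and T9 of 1 mouse (animal M3, timepoint label KP_30w_ND). The labels give a mixed C57BL/6 x Sv129 background, Trp53flox/flox, Rosa26LSL-tdTomato and Rosa26LSL-Luciferase strains, and harvest 30 weeks after tumour induction, with large tumours dissected individually. They name AdSPC-Cre and AdCMV-FlpO as inducing viruses for the study, without saying which this mouse received. All of this is shared by the 3 tumours, and the groups differ only in the tumour a cell came from. No normal tissue or untreated animal is among these samples. The source label calls the cells AT2 (alveolar type 2), and DNA copy number holds no marker that could check this.

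SWI/SNF complexes use the energy of ATP to slide or evict nucleosomes and so open enhancers and promoters. Each complex has 1 ATPase, either SMARCA4 (BRG1) or SMARCA2 (BRM). In the canonical BAF and PBAF forms it works with a core that holds SMARCB1 and the scaffold proteins SMARCC1 and SMARCC2. Canonical BAF carries ARID1A or ARID1B, whereas the PBAF form carries ARID2 and PBRM1, so that the paralogues of an ARID or ATPase pair replace each other within a complex. In human lung adenocarcinoma SMARCA4 and ARID1A are recurrently inactivated, and cells that lose a subunit can come to rely on its paralogue.

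Before any call, the autosomal median of a cell was subtracted from all of its bins. A level is therefore a log2 ratio to the cell's own typical autosomal level, and a doubling of the whole genome cannot be seen. The bins were about 0.5 Mb long. For each cell, neighbouring bins were joined into segments of at least 10 Mb, and a gene was called gained where the mean of its segment was at least 0.32 and lost where it was at most -0.42. In a genome of 2 copies these thresholds stand for 2.5 and 1.5 copies, 1 copy would lie at -1 and 3 copies at 0.58. A gene counted as changed in a tumour when at least 20% of the kept cells had the same call. Every value is that of a segment or bin that holds the gene and its neighbours, and no RNA was used. Each group is 1 tumour, cells of a tumour are not replicates of it, and no test between tumours was made. Intervals are exact 95% (Clopper-Pearson) and cover the counting of cells only. For a count of 0, the share that 3 cells would make is printed as well, which is lower than the exact upper bounds of 7.55% for T1, 7.40% for T7 and 7.11% for T9.

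Of the 150 cells 145 were kept, and they numbered 47 for T1, 48 for T7 and 50 for T9. The median cell had 91.7 Mb of sequenced autosomal bases in T1, 64.4 Mb in T7 and 52.9 Mb in T9, with values between 19.2 and 161.4 Mb over the kept cells. The noise between neighbouring bins fell in the same order, with log2 medians of 0.19 (T1), 0.15 (T7) and 0.13 (T9). The part of depth and noise in differences between tumours was not tested. No 2 cells had identical profiles.

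Changed genes differed in number and kind between the tumours. In T1, 4 of the 9 genes were lost in at least 20% of cells (Arid1a, Smarcc1, Smarcb1 and Smarcc2) and 0 were gained. Of all 4806 autosomal bins 20.1% were lost by the same rule in T1, 11.8% were gained and 31.9% were either. In T7, 2 of the 9 were lost (Smarcb1 and Smarcc2) and 0 were gained, where 2.46% of all bins were lost, 13.6% gained and 16% either. In T9, 1 of the 9 was gained (Smarca4) and 1 lost (Smarcc1), where 7.07% of all bins were gained, 4.2% lost and 11.3% either. In any tumour 5 of the 9 genes were changed, beside 42.4% of all bins. The 5 changed genes lie on 3 chromosomes, so their count is not one of 5 separate events.

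**Figure D1:**
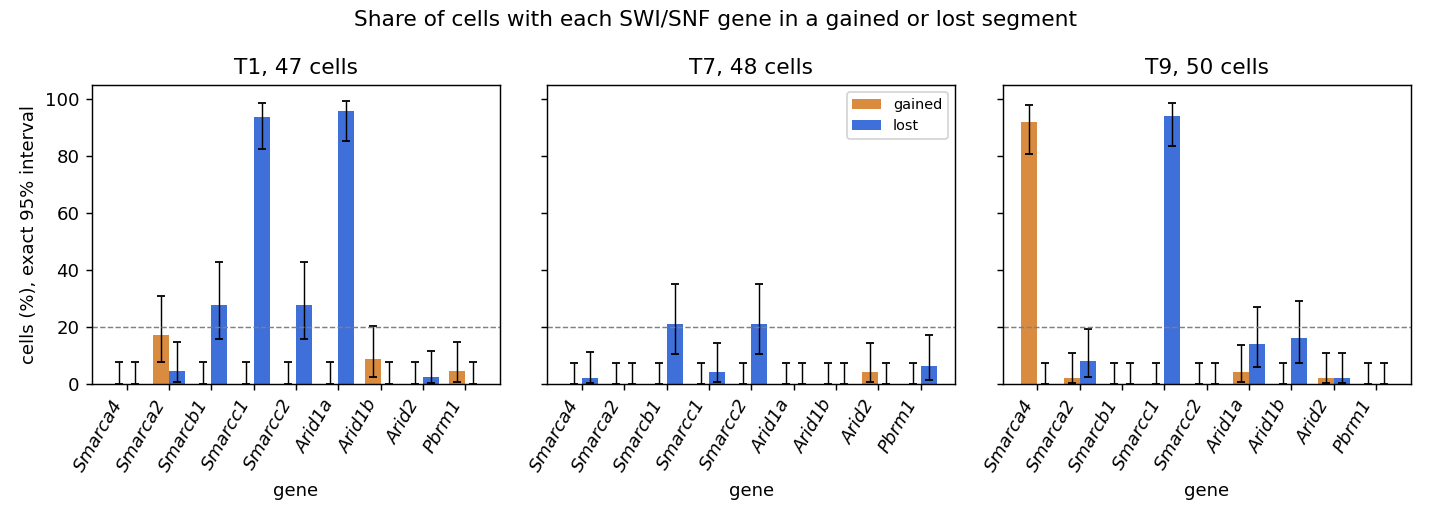
Share of kept cells (%) with each gene in a gained (orange) or lost (blue) segment, by tumour, with exact 95% intervals of counting error. The dashed line is the 20% rule; losses of Smarcc1 and Arid1a in T1, gain of Smarca4 in T9 and loss of Smarcc1 in T9 each exceed 90% of cells, and every other share is under 30%.

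Counted over cells, 27.9% of all gene calls of the 9 in T1 were losses, against 14.4% of all autosomal bin calls. In T7 the shares were 6.02% and 2.22%, and in T9 they were 14.9% and 6.32%. Gains made up 3.31% of the 9 genes' calls in T1, 0.463% in T7 and 11.1% in T9, against 7.94%, 10.5% and 6.52% of all autosomal bins. The 9 genes had a median segment level of -0.19 (T1), -0.04 (T7) and 0.00 (T9), against 0.09, -0.03 and 0.02 over all autosomal bins. With 9 genes in linked groups, chosen with earlier results of these data known, these figures are descriptions of this list.

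Smarca4 encodes the ATPase BRG1 and Smarca2 its paralogue BRM. Smarca4 lies at chr9:21616106-21704230 (GRCm38), inside the bin chr9:21376181-21873798, which lists 17 genes. Its segment level in T9 ran from -0.13 to 0.94 with a median of 0.45 (SD 0.14, 50 cells), or 1.36 times the typical autosomal level of a cell. In T1 it ran from -0.34 to 0.05 with a median of -0.20 (SD 0.08, 47 cells), and in T7 from -0.56 to 0.02 with a median of -0.05 (SD 0.11, 48 cells). Of the 50 T9 cells 49 lay above 0, beside 1 of 47 in T1 and 4 of 48 in T7, so the T9 cells hardly overlap the others. Smarca4 was gained in 46 of 50 T9 cells (92%, 80.8% to 97.8%). It was gained in 0 cells of T1 or T7, with exact upper bounds of 7.55% and 7.40% (3 cells would be 6.38% and 6.25%). It was lost in 1 T7 cell and in no other cell. The gain was called in 23 of 25 deeper and 23 of 25 shallower T9 cells.

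Smarca2 lies on another chromosome, at chr19:26605073-26778321, in the bin chr19:26320038-26820202, which lists 2 genes. Its segment level in T1 ran from -0.61 to 0.55 with a median of -0.11 (SD 0.26), and 21 of 47 cells lay above 0. In T7 it ran from -0.25 to 0.17 with a median of -0.02 (SD 0.06). In T9 it ran from -0.57 to 0.58 with a median of -0.21 (SD 0.21), and 15 of 50 cells lay above 0. The spread between cells of T1 and of T9 is thus several times that in T7, and a median describes neither tumour well. Smarca2 was gained in 8 T1 cells (17%) and lost in 2, gained in 1 T9 cell and lost in 4 (8%), and called in 0 of 48 T7 cells. Of the 8 T1 cells with the gain, 6 were among the 24 shallower cells and 2 among the 23 deeper ones, and the part of depth was not tested.

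Within each cell the ATPase pair was set apart in T9. The segment of Smarca4 was higher than that of Smarca2 by a median of 0.67 (SD 0.28) and higher in 49 of 50 T9 cells. In T1 Smarca4 was lower in 42 of 47 cells, with a median difference of -0.14 (SD 0.24) between segments and of -0.57 (SD 0.32) between the bins themselves, where it was lower in 44 cells. In T7 the median difference was -0.02 (SD 0.16), smaller than the spread between cells. In T9, 42 cells had Smarca4 gained with Smarca2 unchanged and 4 had Smarca4 gained with Smarca2 lost.

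**Figure D2:**
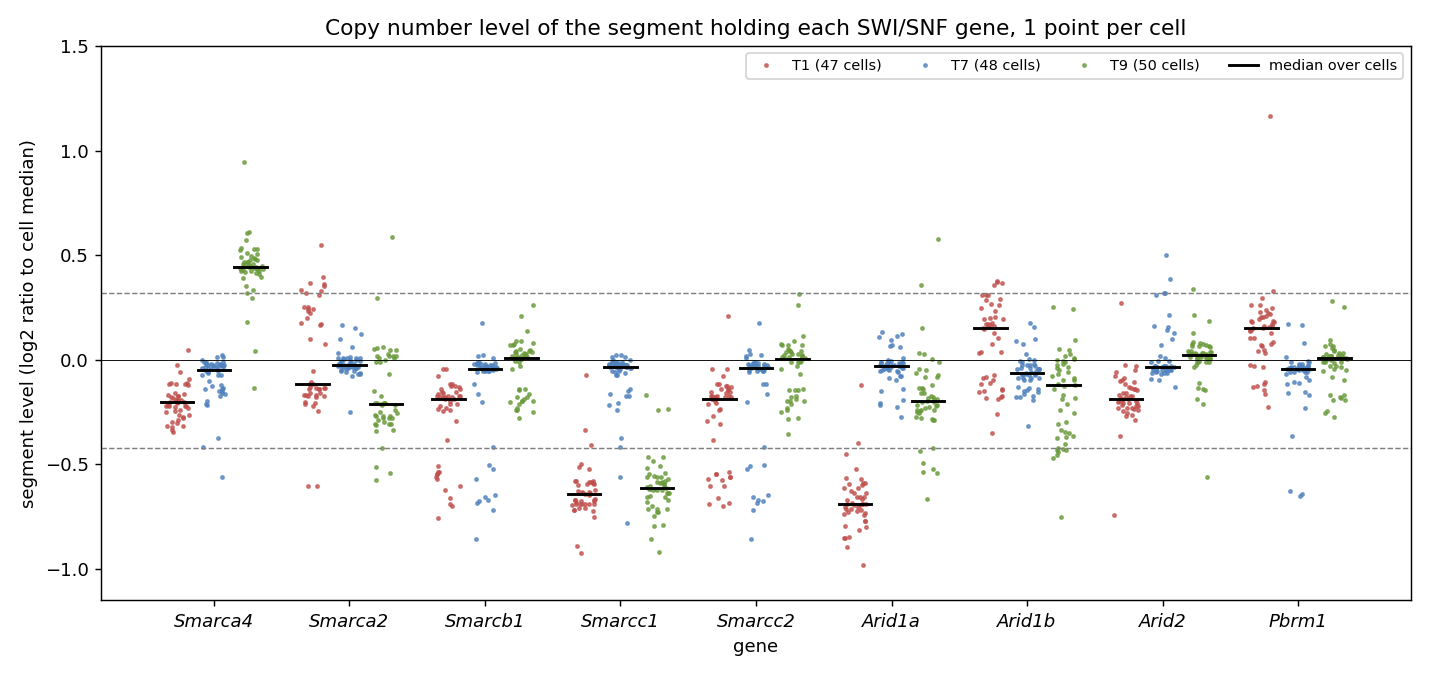
Segment level (log2 ratio to the cell's autosomal median) of each gene, 1 point per kept cell, coloured by tumour, with the median over cells as a bar. Dashed lines mark the thresholds of gain and loss. The T9 cells of Smarca4 lie around 0.45 and the T1 cells of Arid1a around -0.69. Smarcb1 and Smarcc2 each have a low group in T1 and T7.

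The core subunits showed 2 patterns, one for Smarcc1 and one shared by Smarcb1 and Smarcc2. Smarcc1, which encodes the scaffold protein BAF155, lies at chr9:110132024-110240178 in the bin chr9:109909541-110408239, which lists 13 genes. Its segment level in T1 ran from -0.93 to -0.07 with a median of -0.64 (SD 0.13), which is 0.640 times the typical level. In T9 it ran from -0.92 to -0.17 with a median of -0.62 (SD 0.14), or 0.653 times. In T7 it ran from -0.78 to 0.02 with a median of -0.04 (SD 0.15). The medians of T1 and T9 lie below that of T7 by several times the SD over cells, and the T1 and T9 ranges overlap almost wholly. Loss of Smarcc1 was called in 44 of the 47 T1 cells (93.6%, 82.5% to 98.7%) and 47 of the 50 T9 cells (94%, 83.5% to 98.7%), beside 2 of the 48 T7 cells (4.17%). It was the only 1 of the 9 genes lost in over 90% of cells in more than 1 tumour. In T1 the loss was called in 23 of 23 deeper and 21 of 24 shallower cells.

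Smarcb1, which encodes the core subunit SNF5, lies at chr10:75896769-75921614 in the bin chr10:75679103-76178338, which lists 17 genes. Smarcc2, which encodes the scaffold protein BAF170, lies 52.6 Mb further on at chr10:128459182-128490591, in the bin chr10:128098817-128598051, which lists 31 genes. The segment level of Smarcb1 ran from -0.76 to -0.04 with a median of -0.19 (SD 0.20) in T1. It ran from -0.86 to 0.18 with a median of -0.04 (SD 0.26) in T7, and from -0.28 to 0.26 with a median of 0.01 (SD 0.13) in T9. Smarcc2 had medians of -0.19 (SD 0.22) in T1, -0.04 (SD 0.26) in T7 and 0.00 (SD 0.14) in T9. In T1 and T7 most cells lay near the median and a minority lay below the threshold of loss. Some lay close above it, with T7 cell 180053 at -0.417 and T1 cell 180019 at -0.384 for both genes. Loss of Smarcb1 was called in 13 of the 47 T1 cells (27.7%, 15.6% to 42.6%) and 10 of the 48 T7 cells (20.8%, 10.5% to 35%). No T9 cell had the loss, and 0 of 50 cells allows a share of up to 6%. The calls of Smarcc2 fell in the same cells, since both genes were lost together in 13 of 47 T1 cells and 10 of 48 T7 cells and neither was ever lost alone. The lost segment had a median length of 127 Mb in T1 and was the whole measured chromosome in 8 of the 13 cells. In T7 its median length at Smarcb1 was 88.2 Mb, and it was the whole measured chromosome in 2 of the 10 cells. The lower bounds of these intervals lie below the 20% rule, so whether the genes count as changed in T7 rests on a few cells.

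In T1, Smarca2 gain and chromosome 10 loss met in the same cells. Of the 8 T1 cells with Smarca2 gained, 7 also had Smarcb1 and Smarcc2 lost. Over the 47 T1 cells the segment levels of Smarca2 and Smarcc2 had a Pearson correlation of -0.50, and those of Smarcb1 and Smarcc2, on the same chromosome, one of 0.95. The points of both correlations are cells of the same tumour and library type that differ in depth (19.2 to 161.4 Mb in T1). The values are a description, and the part of depth was not tested.

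The scaffold pair Smarcc1 and Smarcc2 also differed within cells. The segment of Smarcc1 was lower than that of Smarcc2 in 40 of 47 T1 cells, with a median difference of -0.45 (SD 0.27), and in 50 of 50 T9 cells, with a median of -0.61 (SD 0.18). In T7 the median difference was 0.00 (SD 0.32). In T1 both scaffold genes were lost in 12 of 47 cells (25.5%), which is the only tumour with cells of that state.

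Smarca4 and Smarcc1 lie on the same chromosome, 88.5 Mb apart, and the break between them differed in place between T1 and T9. In T1 all 47 cells had a segment boundary between the genes, at a median position of 28840442, which is 7.22 Mb past the start of Smarca4. It lay within 2 Mb of that median in 44 of the 47 cells, and the level stepped by a median of -0.44 (SD 0.17), downward in 46. In T9 all 50 cells had a boundary, at a median position of 47252284 or 25.6 Mb past the start of Smarca4, within 2 Mb of it in 49 cells. Here the step was -1.13 (SD 0.26) and downward in all 50 cells. In T7 only 13 of 48 cells had a boundary between the genes, and 4 of these lay within 2 Mb of their median.

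The joint calls follow these boundaries. In T9, 46 of 50 cells had Smarca4 gained together with Smarcc1 lost, and these were all the cells with Smarca4 gained. In T1, 44 of 47 cells had Smarcc1 lost with Smarca4 in neither state, all of the cells with Smarcc1 lost. The gained segment of Smarca4 in T9 had a median length of 43.8 Mb. The lost segment of Smarcc1 had a median length of 95.7 Mb in T1 and 77.2 Mb in T9. The loss in T1 therefore began closer to Smarca4 and covered more of the chromosome than that in T9.

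**Figure D3:**
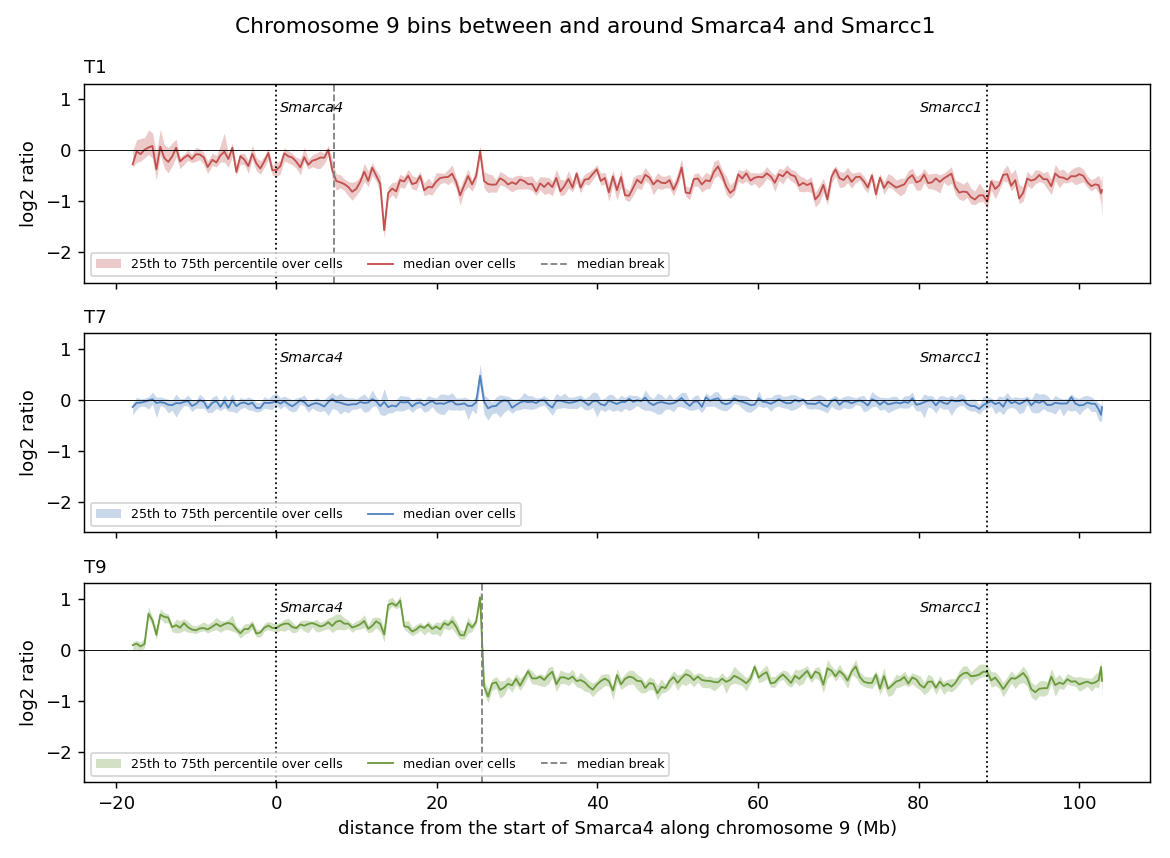
Centred log2 ratio of chromosome 9 bins against distance from the start of Smarca4 (Mb), for T1, T7 and T9; the line is the median over cells, the band the 25th to 75th percentile, dotted lines the 2 genes and the dashed line the median boundary. T1 steps down 7.22 Mb past Smarca4, T9 steps from gain to loss 25.6 Mb past it, and T7 stays near 0.

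Arid1a and Arid1b encode the alternative large ARID subunits of canonical BAF. Arid1a lies at chr4:133679008-133756769 in the bin chr4:133591146-134084757, which lists 14 genes. Its segment level in T1 ran from -0.98 to -0.12 with a median of -0.69 (SD 0.14), or 0.620 times the typical level. In T7 it ran from -0.27 to 0.13 with a median of -0.03 (SD 0.09), and in T9 from -0.67 to 0.58 with a median of -0.20 (SD 0.21). In T1 no other of the 9 genes had a lower median, although the gap to Smarcc1 was smaller than the SD over cells. Loss of Arid1a was called in 45 of the 47 T1 cells (95.7%, 85.5% to 99.5%). It was called in 7 of the 50 T9 cells (14%, 5.82% to 26.7%), where 2 others had a gain, and in 0 of the 48 T7 cells, which allows up to 6.25%. The lost segment in T1 had a median length of 143 Mb and was the whole measured chromosome in 16 of 45 cells. In T9 the lost segments had a median length of 27.6 Mb.

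Arid1b lies at chr17:4994297-5347656, fills 71.2% of its bin chr17:4986505-5483130 and shares it with few other genes, 5 being listed in all. Its segment level in T1 ran from -0.35 to 0.38 with a median of 0.15 (SD 0.20), and 31 of 47 cells lay above 0. In T7 the median was -0.07 (SD 0.09) and in T9 it was -0.12 (SD 0.20), with 9 of 50 cells above 0. It was gained in 4 of 47 T1 cells (8.51%) and lost in 8 of 50 T9 cells (16%), and it was called in 0 of 48 T7 cells. The segments behind these calls were short, with medians of 10.3 Mb in T1 and 11.7 Mb in T9, close to the shortest length that could be called.

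Within each T1 cell Arid1a lay below Arid1b, by a median difference of -0.86 (SD 0.25) and in 47 of 47 cells. In T7 the median difference was 0.03 (SD 0.14) and in T9 it was -0.07 (SD 0.32), both within the spread between cells. Of the 45 T1 cells with Arid1a lost, 4 had Arid1b gained and the others had Arid1b unchanged. In T1 Arid1a and Smarcc1, on different chromosomes, were lost together in 43 of 47 cells. Arid1a was lost in 45 and Smarcc1 in 44 of them, so most cells must hold both losses.

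**Figure D4:**
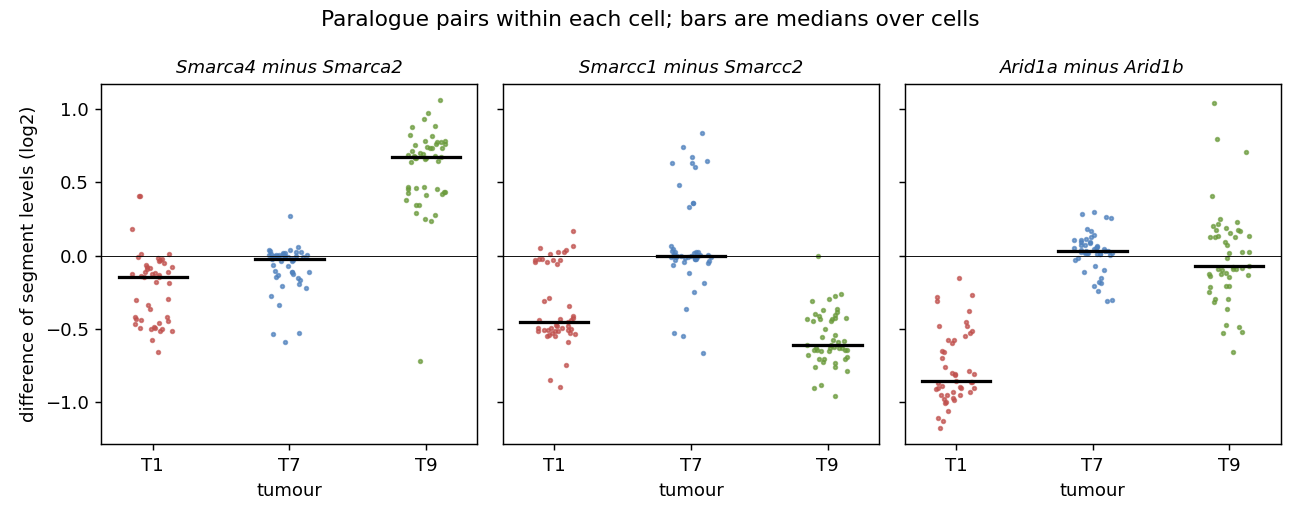
Difference in segment level (log2) between paralogues within each cell, by tumour, 1 point per kept cell, with the median over cells as a bar. Smarca4 lies above Smarca2 in 49 of 50 T9 cells, Smarcc1 below Smarcc2 in 50 of 50 T9 cells, and Arid1a below Arid1b in 47 of 47 T1 cells.

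The PBAF genes Arid2 and Pbrm1 were called in few cells of any tumour. Arid2 encodes the ARID subunit that defines PBAF, and lies at chr15:96287522-96405463 in the bin chr15:96189687-96688009, which lists 7 genes. Its median segment level was -0.19 (SD 0.13) among T1 cells, -0.03 (SD 0.14) among T7 cells and 0.02 (SD 0.12) among T9 cells. It was lost in 1 T1 cell, gained in 2 T7 cells, and gained in 1 and lost in 1 T9 cell. Pbrm1 encodes the polybromo protein BAF180, and lies at chr14:31019138-31121592 in the bin chr14:30759529-31260498, which lists 21 genes. Its level had medians of 0.15 (SD 0.20) in T1, -0.04 (SD 0.17) in T7 and 0.01 (SD 0.11) in T9. It was gained in 2 T1 cells and lost in 3 T7 cells (6.25%), and called in 0 T9 cells. A single T1 cell reached 1.16 at the segment and 1.39 at the bin of Pbrm1, while the T1 median at the bin was 0.07.

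Ordered by level, few neighbouring genes differed by more than the larger of their SDs over cells. In T1 this held for 2 of 8 steps, namely Pbrm1 over Smarca2 and Smarca4 over Smarcc1, which sets Smarcc1 and Arid1a apart at the low end. In T9 it held for Smarca4 over Arid2 and Smarca2 over Smarcc1, so that Smarca4 stood alone at the top and Smarcc1 alone at the bottom. In T7 it held for 0 of 8 steps, and all 9 medians lay between -0.07 and -0.02.

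Single cells carried distinct sets of calls. In T1 the most common set was Smarcc1 and Arid1a lost with no other gene called, in 26 of 47 cells (55.3%, 40.1% to 69.8%). The next was Smarca2 gained with Smarcb1, Smarcc1, Smarcc2 and Arid1a lost, in 5 cells. T1 held 14 distinct sets, 9 of them in a single cell each. In T7, 31 of 48 cells (64.6%) had no gene called, and 10 had Smarcb1 and Smarcc2 lost. In T9, 27 of 50 cells (54%, 39.3% to 68.2%) had Smarca4 gained and Smarcc1 lost with no other gene called. A further 6 T9 cells added loss of Arid1a, 5 added loss of Arid1b and 4 added loss of Smarca2. A call at 1 or more of the 9 genes was present in 46 of the 47 cells of T1, in 17 of the 48 of T7 and in 48 of the 50 of T9.

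**Figure D5:**
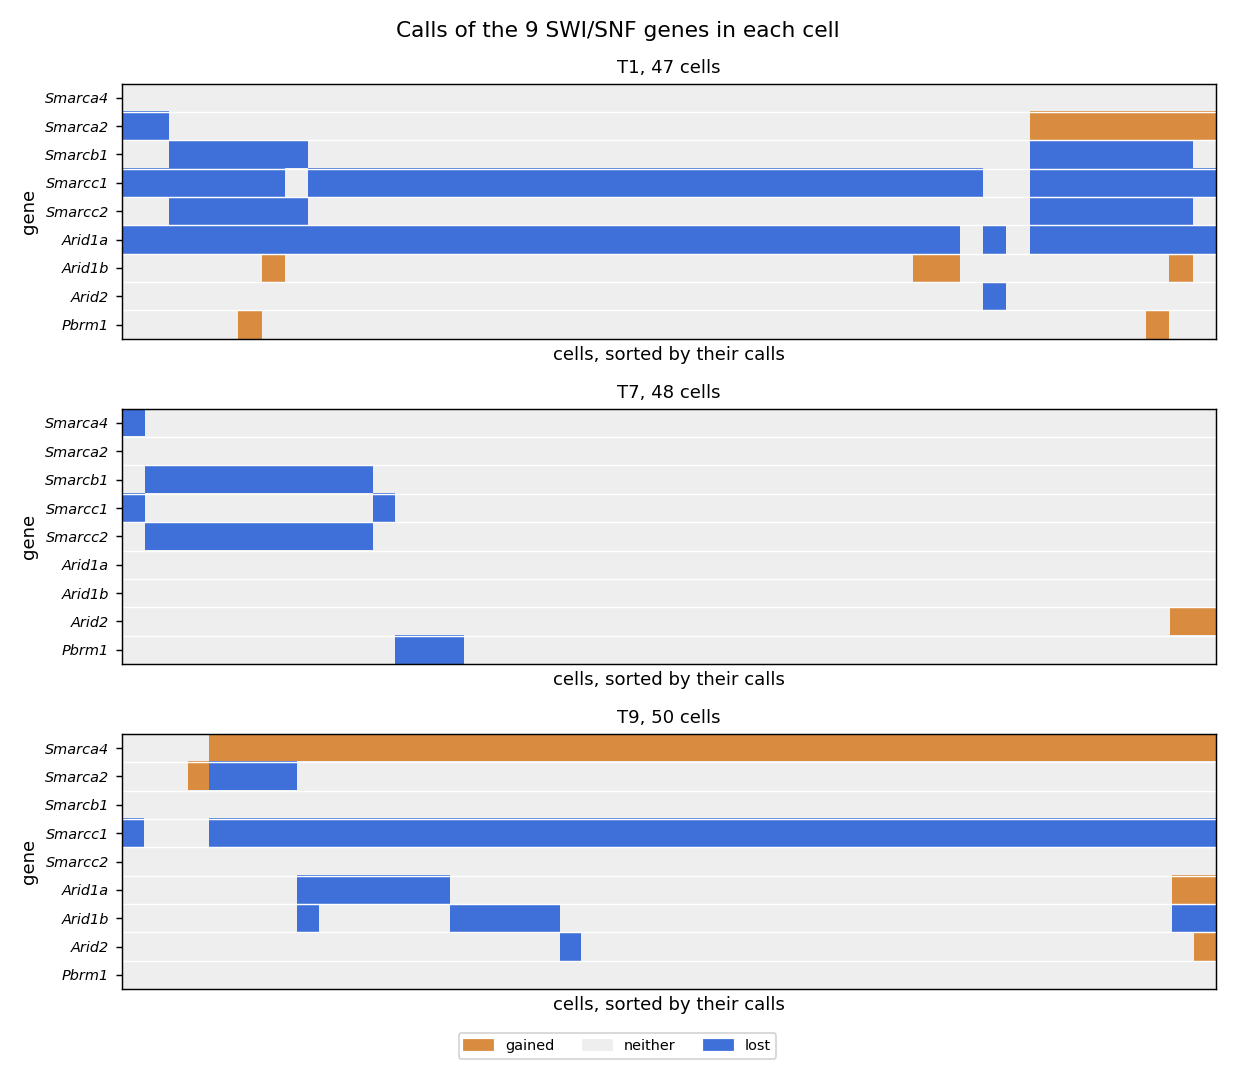
Calls of the 9 genes in each kept cell, 1 column per cell, sorted by calls, for T1, T7 and T9 (orange gained, blue lost, grey neither). Loss of Smarcc1 with Arid1a runs through most T1 cells, gain of Smarca4 with loss of Smarcc1 through most T9 cells, and most T7 columns are grey.

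The bins of the genes were also read without segments. No bin of the 9 had zero depth in any of the 145 cells. Of the single bin values, 1 of 423 in T1 (at Smarcc1), 1 of 432 in T7 (at Smarcc2) and 0 of 450 in T9 lay at or under -1.5, which is 0.354 times the typical level. The same held for 0.118% of all autosomal bin values in T1, 0.0212% in T7 and 0.0379% in T9. No bin therefore fell to a level near 0 in many cells, and a deletion much smaller than a bin could not be detected at this resolution.

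In T1 some bins of the genes lay below their surroundings. Set against the 5 bins on each side, the bin of Smarcb1 had a median departure of -0.34, that of Smarcc2 one of -0.30 and that of Smarcc1 one of -0.26. These 3 lie outside the 5th to 95th percentile of all autosomal bins in T1, -0.24 to 0.23. In T7 the bins of Smarcb1 (0.12) and Arid1a (0.09) lay above the range of all bins, and in T9 that of Smarcc1 (0.13) did. Accordingly the bin medians in T1 were lower than the segment levels, at -1.02 for Smarcc1, -0.92 for Arid1a, -0.59 for Smarcc2 and -0.57 for Smarcb1. They were also lower at Smarca4 (-0.39 beside -0.20), Arid2 (-0.23 beside -0.19) and Pbrm1 (0.07 beside 0.15). At Smarca2 (0.12 beside -0.11) and Arid1b (0.39 beside 0.15) they were higher. In T1 the departure of the 9 bins fell with the number of genes listed in them (Pearson correlation -0.81 over 9 bins, a description), while over all autosomal bins the Spearman correlation, a different measure, was -0.14. Over the same 9 bins the Pearson correlation was 0.48 in T7 and -0.04 in T9. The part of gene density in these departures was not tested.

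The counts of changed genes depended on the thresholds in all 3 tumours. Stricter thresholds (0.45 and -0.7) left 1 changed gene in T1, Arid1a, beside 12.5% of all bins, and 0 in T7, beside 4.52%. In T9 Smarca4 and Smarcc1 each still passed the 20% rule, and the share of all bins is not given there. Few T9 cells held both calls under these thresholds, as the last section shows. Looser ones (0.25 and -0.3) added Smarca2 and Arid1b in both T1 and T9. Both genes counted as gained in T1, making 6 changed genes beside 44.3% of all bins, and as lost in T9, making 4 beside 16% of all bins. The median of 11 bins also gave 6 in T1, with Arid1b and Pbrm1 gained, beside 37.4% of all bins. Called on single bins, 8 of 9 genes were changed in T1 and 1 in T7, beside 54.5% and 16.1% of all bins. In T1 these were losses at Smarca4, Smarcb1, Smarcc1, Smarcc2, Arid1a and Arid2 and gains at Smarca2 and Arid1b. In T9 single bins added loss of Smarca2 to gain of Smarca4 and loss of Smarcc1, and the share of all bins is not given there. In T7 the count was 1 with the median of 11 bins (15.3% of all bins), 0 with a stricter limit on noise (13.1%) and 0 with the ratio from depth (19.8%).

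The source of the ratio mattered for T1, where from depth 4 genes were changed but not the same 4 (Smarcc1 and Smarcc2 lost, Arid1b and Pbrm1 gained), beside 52.1% of all bins. Taken from depth alone, with no reference per bin, the loss of Arid1a was called in 8.51% and that of Smarcc1 in 42.6% of T1 cells. On that scale the same bins lay high in T7, where the median was 0.48 at Arid1a and 0.51 at Smarcc1. Whether T1 and T7 share an offset at these bins was not tested. T1 minus T7 was -0.65 at Arid1a and -0.70 at Smarcc1 from depth, beside -0.66 and -0.61 from segments. The 2 sources stood further apart elsewhere, with 0.70 from depth and 0.22 from segments at Arid1b, 0.46 and 0.19 at Pbrm1, and opposite signs at Smarca2 (0.30 and -0.09). At Smarca4 the T1 minus T7 difference was 0.05 from depth, against -0.15 from segments and -0.37 at the bin. The direction was therefore not settled at Smarca4 or Smarca2. T9 minus T7 at Smarca4 was 0.37 from depth and 0.49 from segments.

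Among 21 other SWI/SNF subunit genes found in the gene column, 4 were changed in some tumour, against 5 of the 9. The lists were chosen with earlier results of these data known, so the counts describe them and no more. In T1, Bicra (a subunit of non-canonical BAF) was lost in 21 of 47 cells (44.7%) and Brd9 (a bromodomain protein of the same complex) in 10 (21.3%). In T7 none of the 21 was changed. In T9, Smarcd2 (a BAF60 accessory subunit) was lost in 42 of 50 cells (84%) and Smarce1 (the BAF57 subunit) in 41 (82%), both on chromosome 11. The 4 of 21 stand beside 42.4% of all autosomal bins. Smarcd2, Smarce1 and Smarcc1 were all the SWI/SNF genes of either list lost in T9 by the 20% rule.

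Matching of calls over the 145 cells paired some of the 9 with these subunits. Smarcc1 was in the same state as Smarcd2 in 97 cells, 46 of them with a change shared by both, and Smarce1 gave the same counts. Smarcc1 was called in 93 cells in all, while Smarcd2 was lost in 42 T9 cells, 4 T1 cells and 1 T7 cell. Arid1a matched Bicra in 108 cells, 22 of them changed, out of 54 cells with Arid1a called. Smarcb1 and Smarcc2 each matched Brd9 in 131 cells, 10 of them changed, out of 23 cells with the gene called. Arid2 and Smarcd1, on the same chromosome, were in the same state in 145 of 145 cells, 5 of them changed. In each of these matches the remaining matched cells had neither gene called. For Smarca4 the closest, Phf10, matched in 98 cells, none of them changed in either gene. The best matches of Smarca2 (Actl6a and Smarcd3, 131 cells each), Arid1b (Phf10, 136) and Pbrm1 (Actl6a and Brd7, 139 each) were mostly cells in which neither gene was called.

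Among 15 genes of other remodeller families, 6 were changed in some tumour, 4 of them gained and 2 lost, beside 42.4% of all autosomal bins. Chd4, the ATPase of the NuRD complex, was gained in all 3 tumours, with calls in 72.3% of cells in T1, 77.1% in T7 and 82% in T9. Smarcad1 was gained in 37 T1 cells (78.7%) and 36 T7 cells (75%). Ino80 and Chd6 were gained in 38 and 37 T7 cells. Chd4 and Smarcad1 both lie on chromosome 6, and Ino80 and Chd6 both on chromosome 2. The count of 4 gained genes is therefore not one of 4 separate events. Chd7 was lost in 45 T1 cells (95.7%) and Chd5 in 41 (87.2%), and both lie on chromosome 4 with Arid1a.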

How the data were processed

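Genomic DNA of 150 single cells was sequenced. The submitters' processing notes name BWA 0.7.17 and the build GRCm38. The deposited depth table holds a coverage signal, the deposited log2 table a log2 ratio, and the deposited weight is a score, per the file headers; what the ratio was taken against was not given in the sources used here, nor how the weight was made. The 150 columns of each table matched the 150 samples, and 0 were left over.

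Bins needed values in at least 80% of cells (5149 of 5331, 4806 of them autosomal), and cells needed depth in 80% of autosomal bins and noise at most 3 scaled median absolute deviations over the median, 0.267. Segments of at least 5 bins minimised the squared error per chromosome, each costing 3 times the natural logarithm of the number of bins on the chromosome times the squared noise, in Python 3.11.15 with numpy 2.4.6, pandas 2.3.3, scipy 1.17.1 and numba 0.67.0. The segmentation was tried on known changes planted on the residuals that it had left in real cells. None were planted at the shortest segment length or close to the main thresholds, and the outcome is not given here. Nothing is stated on wells holding several cells, and no doublet caller was run. With 1 tumour a group, no p-value was computed. Of 22 other SWI/SNF genes listed, 21 were found, and 15 of 15 other remodellers.

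All 9 genes are named, as are genes of the other lists changed in at least 20% of cells, and the best match of each gene among the other SWI/SNF genes by cells in the same state. The genes and lists were chosen with earlier results of these data known. One engineered locus is not reported here. Alternatives changed the thresholds, the unit called, the centring, the ratio, the cell and bin filters and the penalty.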

Additional observations from a re-analysis of the deposited data

How the results depend on the processing

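No paired analysis was possible because every library is a different cell and each group is 1 tumour. Where no cause is named, the cause was not tested. The number of changed genes was 1 in T1 and 0 in T7 under stricter thresholds (0.45 and -0.7), 4 in T9 under looser ones (0.25 and -0.3), 8 in T1 and 1 in T7 when the gene's own bin was called, 1 in T7 with the median of 11 bins, 0 in T7 with the ratio from depth and 0 in T7 with the stricter noise limit. Under stricter thresholds Smarca4 gained with Smarcc1 lost was found in 6% of T9 cells, Smarcc1 lost with Smarca4 in neither state in 17% of T1 cells, and Smarcb1 with Smarcc2 lost in 2.13% of T1 and 4.17% of T7 cells. These thresholds lie close to the levels themselves (0.45 and -0.62 in T9, -0.64 in T1). Called on its own bin, the T9 pair was found in 36%, the T1 pair on chromosome 9 in 46.8% and the T1 pair on chromosome 10 in 61.7% of cells, Smarca4 minus Smarca2 in T1 was -0.57 and Arid1a minus Arid1b in T1 was -1.32. The median of 11 bins gave 74% for the T9 pair, and the ratio from depth 42.6% for Smarcc1 lost with Smarca4 in neither state and 10.6% for Smarcb1 with Smarcc2 lost, both in T1. With the ratio from depth, bin levels changed sign for Smarca4 (0.59), Smarcb1 (0.075), Smarcc2 (0.21) and Arid2 (0.012) in T1 and for Smarcc1 (0.11) in T9, as did Smarca4 in T1 minus T7 (0.054). Smaller bin levels changed sign too. In T7, Smarca4 went from -0.02 to 0.54, Smarcb1 from -0.03 to 0.32, Smarcc1 from -0.06 to 0.51 and Smarcc2 from -0.08 to 0.40. Smarca2 in T7 went from 0.003 to -0.17. In T9, Arid1a went from -0.08 to 0.19, Smarcb1 from -0.004 to 0.27 and Smarcc2 from -0.01 to 0.41. Arid2 (-0.002) and Pbrm1 (-0.025) turned negative in T9. Centring on the mode, a penalty of 6, no noise filter and leaving out the lowest 10% of bins by weight moved none of these counts, shares or pair differences beyond the spread or interval; the last drops the bins of Smarca4, Smarcc1, Smarcc2 and Arid1a, whose nearest kept bin was used. Splitting cells by depth, and the T1 minus T7 difference from depth, were chosen after seeing the data.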
